A study of Mus musculus with 10 samples.

Results

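The genes of mitochondrial and peroxisomal fatty acid oxidation were followed in mouse hearts. They were taken as a list of 33 gene symbols, ordered by their step in the pathway, with no level or difference in the rule. The list was, however, chosen with earlier results of these data known. Of these, 32 had a row among the 11790 genes of the deposited table, and Acad10 was not analysed here. The 10 samples were 5 labelled as heart tissue of A-PDK1KO mice, which lack 3-phosphoinositide-dependent kinase 1 (PDK1, a kinase of insulin signalling encoded by Pdpk1) specifically in adipocytes, and 5 labelled as heart tissue of PDK1 flox/flox mice with no such deletion, called controls. Mice were randomly fed and 10 to 11 weeks old, and total RNA of frozen heart tissue was sequenced. The sources used here do not give the Cre driver, the sex, the batches, or whether each heart is from a mouse of its own, so p-values measure the spread between these samples. Pdpk1 in the heart, which was not the deleted tissue, ranged from 2.73 to 4.04 FPKM in A-PDK1KO hearts and from 3.14 to 3.77 FPKM in control hearts (log2 difference -0.04 ± 0.09 SE, limma adjusted p = 0.905).

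Fatty acids are the main fuel of the adult heart. In the cytosol they are joined to coenzyme A, carried into mitochondria as carnitine esters, and shortened in repeated rounds of dehydrogenation, hydration, a second dehydrogenation and thiolysis. The first dehydrogenation passes electrons through electron transfer flavoprotein to the respiratory chain, and auxiliary enzymes move or remove the double bonds of unsaturated chains. Peroxisomes shorten very long chains and hand the products to mitochondria. In muscle and liver many of these genes are under the nuclear receptor PPAR-alpha.

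Levels are FPKM (fragments scaled to gene length and to the number of counted reads), and differences are A-PDK1KO minus control on the log2(FPKM + 1) scale, on which changes of low genes come out too small. Each difference was tested with limma, a linear model fitted across all 9987 genes that averaged 1 FPKM or more, and a gene was called at a Benjamini-Hochberg adjusted p under 0.05. The FPKM imply 9249256 to 11384423 counted reads per heart. Transcripts of the mitochondrial genome made up 34.3% to 41.5% of them in A-PDK1KO hearts and 32.7% to 40.4% in control hearts. Of 4 atrial markers, Myl7, which encodes atrial myosin light chain, was unequal between hearts. Among A-PDK1KO hearts it reached 35.0 FPKM (replicate 3) and 47.6 FPKM (replicate 5). Among controls it reached 85.9 FPKM (replicate 2) and 71.3 FPKM (replicate 5), and it stayed under 1 FPKM elsewhere. Myl4 and Sln were highest in the same hearts. Nppa did not follow them in A-PDK1KO hearts, where replicate 3 (139 FPKM) and replicate 5 (159 FPKM) were lowest. Its control levels were 325 FPKM (replicate 2) and 492 FPKM (replicate 5), against 486 FPKM (replicate 1) with Myl7 under 1 FPKM. Nppa had a log2 difference of -0.84 ± 0.23 SE (limma unadjusted p = 0.00317, adjusted p = 0.0908). The share of atrium is therefore uncertain. Ventricular and general cardiomyocyte markers (6 of 6 measured) summed to 10707 to 12490 FPKM in A-PDK1KO hearts and 11432 to 13961 FPKM in control hearts, so heart markers were present in every sample. In such bulk samples fewer cells of a type and less RNA per cell cannot be told apart.

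Most transcripts for fatty acid oxidation had a higher mean in A-PDK1KO hearts, by small amounts. Of the 33 members 31 reached the tested level. Among these 31, 5 rose and 0 fell: Ech1 and Decr1, which prepare unsaturated chains for oxidation, Hadh, a dehydrogenase of the oxidation spiral, and Cpt2 and Slc25a20 of the carnitine shuttle, each by 0.25 to 0.30 on the log2 scale. Over all genes tested 1.21% were called higher and 0.871% lower, 2.08% in either direction. With limma voom on recovered reads, 8 members were called higher and 0 lower, against 140 and 91 of all 9984 genes in that test. At an unadjusted p under 0.05, 17 of the 31 were higher and 0 lower, against 8.53% and 7.03% of all genes tested. A log2 difference above 0 was found in 30 of 31 members and in 54.6% of all genes, and the median was 0.17 over the members and 0.02 over all genes. In 9 members every A-PDK1KO heart lay above every control heart, as in 2.72% of all genes, and in 0 every A-PDK1KO heart lay below, as in 2.23% of all genes. Because the list was chosen with earlier results of these data known, these shares describe the members and do not test them as a set.

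The number of calls was less stable than the differences. With 1 heart left out, 2 members were called without A-PDK1KO replicate 1 (Ech1 and Hadh), 1 without control replicate 1 (Ech1), 4 without control replicate 4 (Hadh, Cpt2, Slc25a20 and Acads), and 0 without A-PDK1KO replicate 2, 3, 4 or 5 or control replicate 2, 3 or 5, while the median difference over the members stayed between 0.14 and 0.21. The count was 0 on the TPM scale, 1 with median-of-ratios factors, 2 with atrial tissue as a covariate, 9 with scaling that leaves out mitochondrially encoded and haemoglobin genes, and 11 after quantile normalization. Of all genes tested, 0.411%, 1.02%, 1.06%, 2.2% and 1.49% were called higher under these settings, in that order. Over all genes, 208 were called, 121 higher and 87 lower, and with the scaling that leaves out those genes 220 were higher and 94 lower. No scaling moved the median of all genes by more than 0.1 on the log2 scale.

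**Figure D1:**
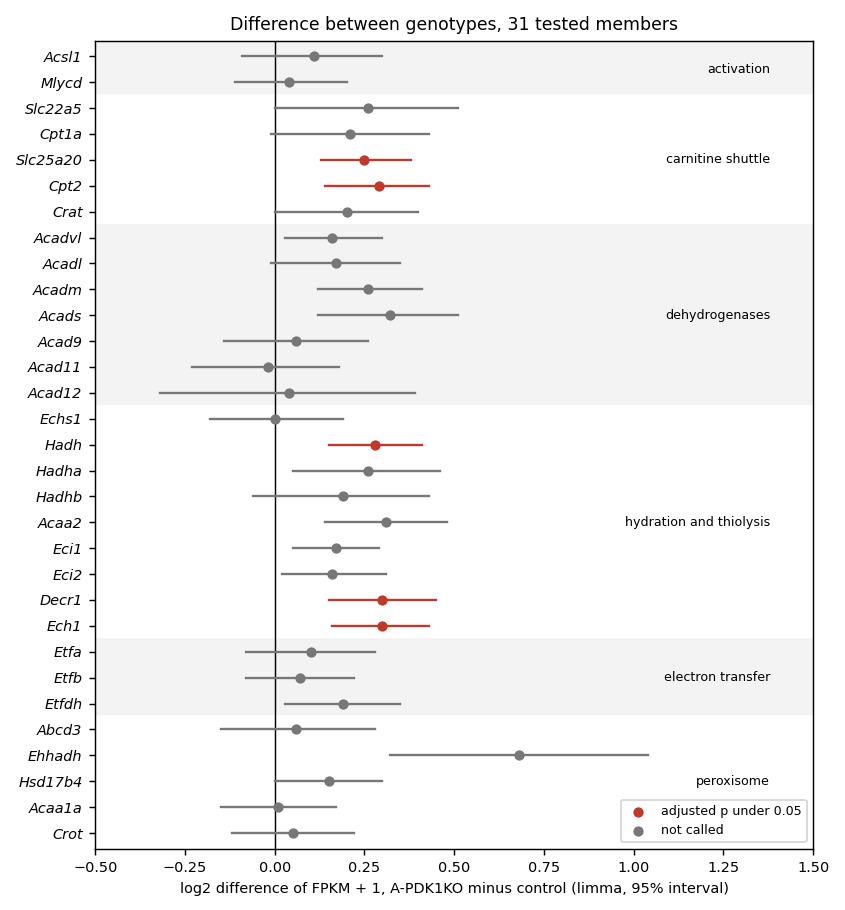
Log2 difference of FPKM + 1 between A-PDK1KO and control hearts for the 31 tested members (n = 5 per group), by step, with limma's 95% interval; red marks an adjusted p under 0.05. The 5 called members lie in the carnitine shuttle and in hydration and thiolysis, and Ehhadh has the highest difference, 0.68.

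Levels spanned a wide range. FPKM are per length, and the values match a length that joins all annotated exons of a gene, so ranks between genes depend on annotation too. Ech1 (2284 bases) and Hadha (8730 bases) had 12033 to 19090 and 10442 to 20234 reads per heart, against mean FPKM of 620.3 and 166. Cpt1b and Etfb share exons with other genes, so their ranks are uncertain. The order of mean FPKM over all 10 hearts began with Ech1 (620.3), Acaa2 (600.0), Acadl (420.1), Acadvl (312), Etfa (262) and Acadm (260.0). The ranges of Ech1 and Acaa2 overlapped within each genotype, as did those of Acadvl and Etfa and those of Etfa and Acadm, so these neighbours were not set apart by their spread. Acaa2 and Acadl overlapped in control hearts and not in A-PDK1KO hearts, and Acadl and Acadvl overlapped in neither. At the low end stood Crot (6.31), Ehhadh (6.12), Cpt1a (5.07), Acad9 (3.38) and Cpt1b (0.493). All 5 peroxisomal members were under 30 FPKM in every heart, whereas the mitochondrial enzymes of the spiral other than Acad9, Acad11, Acad12, Echs1 and Eci2 were above 60 FPKM in every heart.

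**Figure D2:**
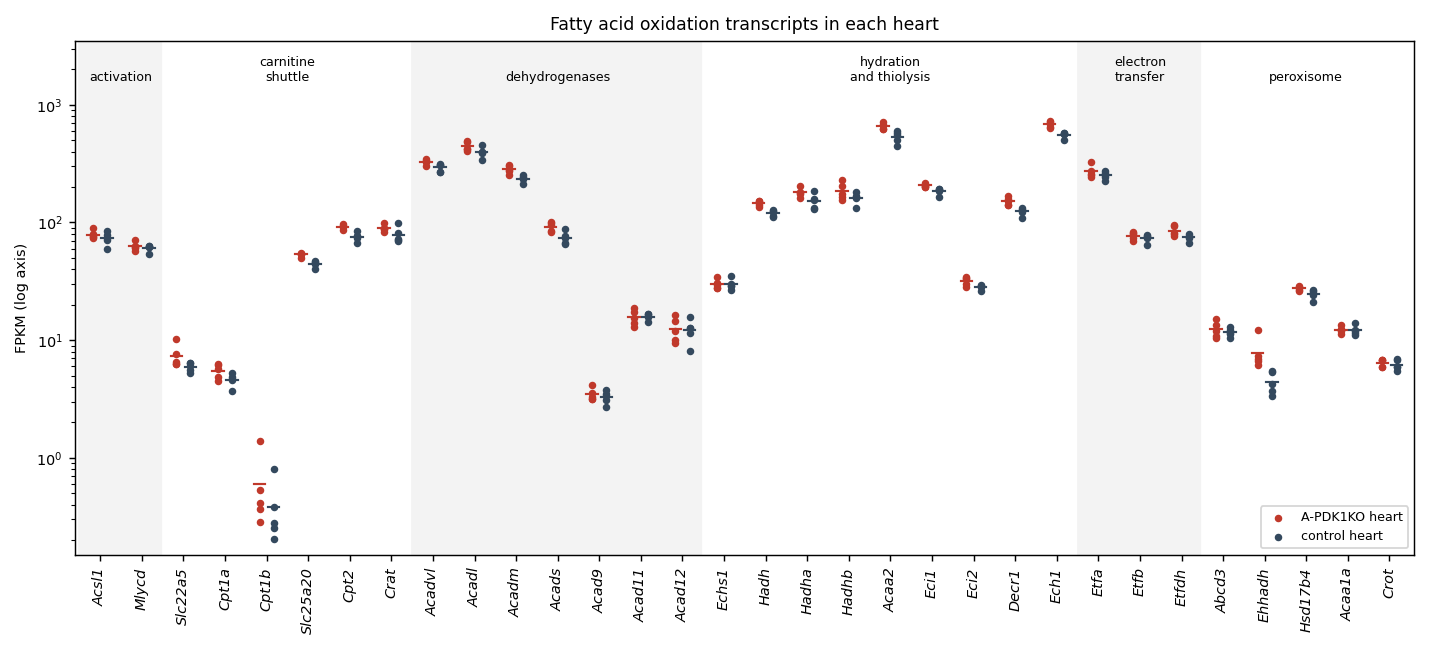
FPKM (log axis) of the 32 measured members in each heart, by step; points are single hearts, A-PDK1KO left of control, and bars are group means (n = 5 each). Most members of the spiral lie between 65.0 and 734 FPKM, the peroxisomal ones under 30 FPKM, and Cpt1b lies lowest.

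Activation of fatty acids is represented by Acsl1, the main long-chain acyl-CoA synthetase of the heart, and Mlycd, which removes malonyl-CoA, the inhibitor of the carnitine shuttle. Acsl1 was at 73.3, 79.1, 76.2, 89.5 and 75.1 FPKM in A-PDK1KO replicates 1 to 5, against 59.8, 73.5, 77.5, 85.2 and 70.5 FPKM in control replicates 1 to 5. Control replicate 1 was lowest and A-PDK1KO replicate 4 highest, the groups overlapped, and the difference was 0.11 ± 0.09 SE (limma adjusted p = 0.633). Mlycd averaged 62.6 ± 5.31 FPKM in A-PDK1KO hearts and 60.6 ± 3.82 FPKM in control hearts (SD, n = 5 each), a difference of 0.04 ± 0.07 SE that was not called. Neither gene passed at an unadjusted p under 0.05 or with limma voom on recovered reads.

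The carnitine shuttle held 2 of the 5 called genes. Cpt2, on the inner membrane (chromosome 4, 107903981 to 107923610, mm10), turns acyl-carnitines back into acyl-CoA. Its level was 87.1, 91.4, 93.7, 96.9 and 92.6 FPKM in A-PDK1KO replicates 1 to 5, against 67.1, 74.0, 76.1, 85.4 and 76.2 FPKM in control replicates 1 to 5. The lowest A-PDK1KO heart exceeded the highest control heart, which was control replicate 4. The difference was 0.29 ± 0.07 SE (limma adjusted p = 0.0451), and the group means were 1.22 times apart. Slc25a20 (chromosome 9, 108662088 to 108684641) encodes the carrier that exchanges acyl-carnitine for carnitine across that membrane. It was at 53.7, 54.4, 54.2, 55.4 and 49.9 FPKM in A-PDK1KO replicates 1 to 5, against 40.5, 44.7, 45.8, 47.2 and 45.4 FPKM in control replicates 1 to 5. Every A-PDK1KO heart again lay above every control heart, with a difference of 0.25 ± 0.06 SE (limma adjusted p = 0.0455). With 1 heart left out the log2 difference stayed between 0.24 and 0.33 for Cpt2 and between 0.22 and 0.28 for Slc25a20, and each was called in 1 of 10 such fits (without control replicate 4). Their adjusted p reached 0.109 for Cpt2 when A-PDK1KO replicate 5 was dropped and 0.107 for Slc25a20 when A-PDK1KO replicate 3 was.

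Cpt1 forms the acyl-carnitines, and it has a liver isoform, Cpt1a, and a muscle isoform, Cpt1b. Cpt1a was at 5.74, 6.30, 4.89, 6.15 and 4.52 FPKM in A-PDK1KO replicates 1 to 5, against 3.68, 4.90, 4.67, 5.28 and 4.60 FPKM in control replicates 1 to 5. The groups overlapped and the difference was 0.21 ± 0.10 SE (limma adjusted p = 0.354). Cpt1b, which is known as the main isoform of the adult heart, was at 0.371, 1.40, 0.537, 0.417 and 0.286 FPKM in A-PDK1KO replicates 1 to 5, against 0.385, 0.205, 0.252, 0.798 and 0.277 FPKM in control replicates 1 to 5, from 7 to 46 reads per heart. Its mean of 0.493 FPKM kept it from the test, and without the filter its difference was 0.19 ± 0.18 SE (limma adjusted p = 0.702). In the GENCODE annotation of mm10, 81.4% of its exon length (chromosome 15, 89416405 to 89425863) is shared on the same strand with exons of Gm44502, a protein-coding gene whose span also overlaps Chkb. The sources used here do not say how reads on both genes were counted, so the level of Cpt1b is uncertain.

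Carnitine itself enters through the transporter Slc22a5, and Crat, carnitine acetyltransferase, moves acetyl groups between coenzyme A and carnitine. Slc22a5 was at 6.32, 10.2, 6.54, 6.32 and 7.64 FPKM in A-PDK1KO replicates 1 to 5, against 6.44, 5.27, 6.06, 5.59 and 6.41 FPKM in control replicates 1 to 5. A-PDK1KO replicate 2 stood highest, and the other 4 A-PDK1KO hearts reached from 6.32 to 7.64 FPKM, into the range of the controls. Crat was at 83.0, 90.3, 88.4, 99.3 and 87.8 FPKM in A-PDK1KO replicates 1 to 5, against 69.7, 71.9, 81.4, 98.3 and 71.0 FPKM in control replicates 1 to 5. Here control replicate 4 lay among the A-PDK1KO hearts. Both had an unadjusted p under 0.05 (0.0471 and 0.0485) and neither was called (limma adjusted p = 0.313 and 0.318).

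Acyl-CoA dehydrogenases open each round of the spiral and differ in the chain length they accept: Acadvl takes very long, Acadl long, Acadm medium and Acads short chains. None of the 7 tested was called by limma on FPKM, 3 were higher at an unadjusted p under 0.05 (Acadm, Acads and Acadvl), and limma voom on recovered reads called 1, Acadm. The log2 differences were 0.16 for Acadvl, 0.17 for Acadl, 0.26 for Acadm and 0.32 for Acads. Whether they differ from each other was not tested.

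Acadm (chromosome 3, 153922357 to 153944632) was at 253, 309.9, 278, 301 and 276 FPKM in A-PDK1KO replicates 1 to 5, against 236, 239, 241, 251 and 214 FPKM in control replicates 1 to 5. The lowest A-PDK1KO heart was just above the highest control heart, and the difference of 0.26 ± 0.07 SE stood just outside the threshold (limma adjusted p = 0.0658). Acads was at 82.6, 98.9, 95.1, 101 and 84.1 FPKM in A-PDK1KO replicates 1 to 5, against 67.3, 74.2, 76.2, 88.4 and 65.0 FPKM in control replicates 1 to 5. Control replicate 4 overlapped the A-PDK1KO range, and the difference was 0.32 ± 0.09 SE (limma adjusted p = 0.103). Acadvl was at 300.3, 336, 334.1, 347 and 327.9 FPKM in A-PDK1KO replicates 1 to 5, against 271, 313, 309, 307 and 270.2 FPKM in control replicates 1 to 5. Its A-PDK1KO replicate 1 lay within the control range and the other 4 lay above it (limma adjusted p = 0.233). Of the exon length of Acadvl 42.9% lies opposite exons of Dvl2 on the other strand. The sources used here give no strand setting, so how reads on that part were assigned is unknown. Acadl, the dehydrogenase of highest level, was at 401, 495, 419, 481 and 424 FPKM in A-PDK1KO replicates 1 to 5, against 390.5, 399, 399, 453 and 338 FPKM in control replicates 1 to 5. Its groups overlapped (limma adjusted p = 0.366).

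The remaining dehydrogenases were lower in level. Acad9, known also as an assembly factor of respiratory complex I, ranged over 3.16 to 4.15 FPKM in A-PDK1KO hearts and 2.71 to 3.78 FPKM in control hearts. Acad11 ranged over 12.9 to 18.9 FPKM in A-PDK1KO hearts and 14.2 to 16.6 FPKM in control hearts and was the 1 tested member with a log2 difference below 0 (-0.02 ± 0.10 SE, limma adjusted p = 0.942). Its sign turned to above 0 among hearts with Myl7 under 10 FPKM and when A-PDK1KO replicate 1 or 5 was left out. Acad12 ranged over 9.50 to 16.3 FPKM in A-PDK1KO hearts and 8.16 to 15.6 FPKM in control hearts (limma adjusted p = 0.95).

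The steps after the first dehydrogenation held the other 3 called genes. Ech1 (chromosome 7, 28825217 to 28832247), a dienoyl-CoA isomerase for unsaturated chains, was the member of highest mean FPKM. Its level was 629, 688, 719, 734 and 650.5 FPKM in A-PDK1KO replicates 1 to 5, against 569.6, 575, 573, 566 and 498 FPKM in control replicates 1 to 5. All A-PDK1KO hearts exceeded all control hearts, the gap to control replicate 5 being the widest. The difference was 0.30 ± 0.06 SE (limma adjusted p = 0.0325). Decr1 (chromosome 4, 15917240 to 15945507), the dienoyl-CoA reductase of the same auxiliary route, was at 142, 159, 152, 167 and 142 FPKM in A-PDK1KO replicates 1 to 5, against 123, 133, 128, 128 and 109 FPKM in control replicates 1 to 5. Its groups did not overlap either, and the difference was 0.30 ± 0.07 SE (limma adjusted p = 0.0482).

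Eci1 and Eci2 encode enoyl-CoA isomerases that shift double bonds. Eci1 was at 205, 209, 202, 218 and 200.5 FPKM in A-PDK1KO replicates 1 to 5, against 185, 191, 191, 189 and 166 FPKM in control replicates 1 to 5. The 5 A-PDK1KO hearts lay above the 5 controls, by a log2 difference of 0.17 ± 0.06 SE that was not called (limma adjusted p = 0.163). Eci2 was at 28.3, 33.9, 32.8, 34.4 and 30.2 FPKM in A-PDK1KO replicates 1 to 5, against 29.0, 28.8, 28.2, 29.6 and 26.2 FPKM in control replicates 1 to 5. Its A-PDK1KO replicate 1 lay within the control range and the other 4 lay above it (limma adjusted p = 0.266). The 4 genes for unsaturated chains, grouped after their values were seen, thus had log2 differences of 0.30 (Ech1), 0.30 (Decr1), 0.17 (Eci1) and 0.16 (Eci2).

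Hadh (chromosome 3, 131233419 to 131272101) encodes the hydroxyacyl-CoA dehydrogenase for shorter chains. It was at 135, 153, 147, 153 and 141 FPKM in A-PDK1KO replicates 1 to 5, against 111, 122, 128, 124 and 113 FPKM in control replicates 1 to 5. Every A-PDK1KO heart was above every control heart, and the difference was 0.28 ± 0.06 SE (limma adjusted p = 0.0331). Acaa2, the thiolase that releases acetyl-CoA, was at 621, 678, 677, 713 and 627 FPKM in A-PDK1KO replicates 1 to 5, against 503, 558, 574, 598 and 450.3 FPKM in control replicates 1 to 5. Those groups did not overlap, yet the difference of 0.31 ± 0.08 SE was not called (limma adjusted p = 0.0652). Of the 10 fits that each dropped a heart, 2 called Ech1, 2 called Hadh and 0 called Decr1. Leaving out A-PDK1KO replicate 3 gave the highest adjusted p of each, 0.0851 for Ech1, 0.0837 for Hadh and 0.104 for Decr1. Their log2 differences in those fits lay between 0.25 and 0.33.

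Hadha and Hadhb encode the alpha and beta subunits of the trifunctional protein, which carries out the last 3 steps on long chains. Hadha was at 161, 179.6, 183, 204 and 176 FPKM in A-PDK1KO replicates 1 to 5, against 129, 154, 159, 184 and 133 FPKM in control replicates 1 to 5. Control replicate 4 reached into the A-PDK1KO range, and the difference was 0.26 ± 0.10 SE (limma adjusted p = 0.211). Hadhb averaged 185 ± 31.0 FPKM in A-PDK1KO hearts and 162 ± 18.7 FPKM in control hearts (SD, n = 5 each), with a difference of 0.19 ± 0.11 SE (limma adjusted p = 0.469). The Hadha to Hadhb ratio of FPKM, which does not depend on the scaling of a heart, was 1.04, 0.784, 1.05, 0.993 and 1.07 in A-PDK1KO replicates 1 to 5, against 0.769, 0.961, 0.954, 1.01 and 1.01 in control replicates 1 to 5. The ratios overlapped, and the lowest were those of A-PDK1KO replicate 2 and control replicate 1. Echs1, the hydratase for short chains, averaged 30.0 ± 2.87 FPKM in A-PDK1KO hearts and 30.0 ± 3.30 FPKM in control hearts (SD, n = 5 each), and its difference of 0.00 ± 0.09 SE changed sign with the setting.

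**Figure D3:**
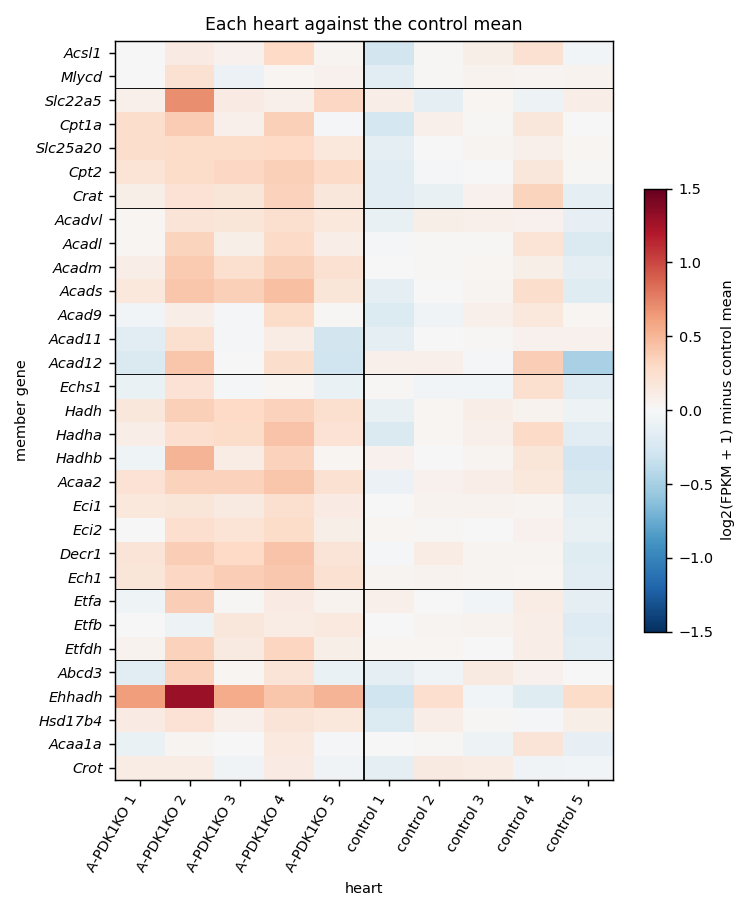
Log2(FPKM + 1) of each tested member in each heart minus the mean of the 5 control hearts, A-PDK1KO hearts left and control hearts right; red is above and blue below the control mean. A-PDK1KO replicates 2 and 4 are red in 30 and 31 of 31 members, while control replicates 1 and 5 are blue in most.

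Promoters of the called genes are shown because their transcripts moved in the same direction. RefSeq (GRCm38.p6) gave windows of 300 bases, from 250 before to 50 after the annotated start, for 27 of the 33 members (29 windows). The 250 bases before the start are printed for the called genes with an entry, for Ehhadh, which had the highest difference, and for Hadhb, whose window covers most of the interval to Hadha. Capitals mark the GC box GGGCGG or its reverse complement, found on either strand. The windows are those of Ech1 (chr7:28825088-28825337, plus strand), Hadh (chr3:131272102-131272351, minus strand), Cpt2 (chr4:107923590-107923839, minus strand), Slc25a20 (chr9:108661886-108662135, plus strand), Ehhadh (chr16:21787835-21788084, minus strand) and Hadhb (chr5:30155003-30155252, plus strand), each written 5′ to 3′ along its gene. RefSeq starts can differ from the GENCODE spans given for the genes.
Ech1: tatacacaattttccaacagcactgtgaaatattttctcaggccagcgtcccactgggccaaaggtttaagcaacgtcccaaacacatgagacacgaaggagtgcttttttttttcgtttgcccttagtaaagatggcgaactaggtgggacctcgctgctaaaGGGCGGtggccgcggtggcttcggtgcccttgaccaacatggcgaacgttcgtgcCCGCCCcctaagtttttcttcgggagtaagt
Hadh: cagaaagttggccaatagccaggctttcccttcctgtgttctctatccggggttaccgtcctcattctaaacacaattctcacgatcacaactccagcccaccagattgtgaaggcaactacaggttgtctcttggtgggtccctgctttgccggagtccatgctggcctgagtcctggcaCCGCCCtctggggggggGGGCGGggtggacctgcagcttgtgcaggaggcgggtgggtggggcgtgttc
Cpt2: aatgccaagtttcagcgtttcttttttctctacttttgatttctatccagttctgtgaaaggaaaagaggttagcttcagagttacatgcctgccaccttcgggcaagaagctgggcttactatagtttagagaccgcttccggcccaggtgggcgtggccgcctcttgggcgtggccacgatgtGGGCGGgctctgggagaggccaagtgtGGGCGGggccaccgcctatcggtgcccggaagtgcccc
Slc25a20: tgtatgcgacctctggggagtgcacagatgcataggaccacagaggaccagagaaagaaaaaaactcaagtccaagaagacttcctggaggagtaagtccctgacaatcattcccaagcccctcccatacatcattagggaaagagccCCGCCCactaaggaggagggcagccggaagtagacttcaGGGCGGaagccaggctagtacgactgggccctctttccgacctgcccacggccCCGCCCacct
Ehhadh: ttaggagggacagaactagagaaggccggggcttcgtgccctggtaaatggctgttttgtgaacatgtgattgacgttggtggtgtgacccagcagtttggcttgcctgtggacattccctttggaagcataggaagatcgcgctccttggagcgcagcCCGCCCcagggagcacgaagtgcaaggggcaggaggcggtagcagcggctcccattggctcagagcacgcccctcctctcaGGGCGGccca
Hadhb: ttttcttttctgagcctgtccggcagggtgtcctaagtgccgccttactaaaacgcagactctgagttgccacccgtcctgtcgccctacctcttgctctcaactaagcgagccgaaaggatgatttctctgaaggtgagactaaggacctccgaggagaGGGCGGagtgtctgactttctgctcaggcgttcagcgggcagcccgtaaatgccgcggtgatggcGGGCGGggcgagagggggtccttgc

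All 6 printed windows held at least 2 GC boxes, and Slc25a20 held 3. How many windows of the other members or of all genes hold 2 or more was not counted, so this is not a trait of the printed genes. Over the full windows, GGGCGG on either strand was present in 20 of 29 member windows (69%) and in 35.7% of 32851 windows of all genes, and the median GC content was 62.3% in the member windows and 52.7% in all. CCAAT on either strand was in 12 of 29 member windows (41.4%) and in 37.4% of all. The receptor half-site AGGTCA was in 4 of 29 (13.8%), those of Acadm, Acadvl, Cpt1a and Echs1, and in 16.3% of all. The direct repeat AGGNCANAGGNCA, whose form PPAR-alpha is known to bind, was in 0 of 29 and in 0.381% of all, and TCAAGGTCA, the element of oestrogen-related receptors, was in 0 of 29 and in 0.423% of all. Both of these longer motifs can contain the half-site. The windows of all genes were not limited to genes tested in these hearts. These shares therefore do not compare the members with other genes of the heart. The RefSeq starts of Hadha and Hadhb lie head to head with 272 bases between them, so their windows overlap. Their GENCODE spans come closer, with Hadha ending at 30155162 and Hadhb beginning at 30155248 on chromosome 5. A match is a description of letters, and the absence of one says only that these letters are not in these windows.

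Electron transfer flavoprotein (Etfa and Etfb) takes electrons from the acyl-CoA dehydrogenases, and Etfdh passes them to ubiquinone. None of these 3 was called by limma on FPKM or by limma voom on recovered reads, and 1, Etfdh, was higher at an unadjusted p under 0.05. Etfa was at 241, 326.3, 254, 274 and 260.2 FPKM in A-PDK1KO replicates 1 to 5, against 264, 252, 244, 273 and 227 FPKM in control replicates 1 to 5. A-PDK1KO replicate 2 was highest and the others lay in or near the control range (difference 0.10 ± 0.08 SE, limma adjusted p = 0.624). Etfdh was at 77.1, 95.1, 82.0, 93.2 and 79.5 FPKM in A-PDK1KO replicates 1 to 5, against 76.3, 75.8, 74.5, 80.0 and 66.7 FPKM in control replicates 1 to 5. The groups overlapped, with A-PDK1KO replicates 2 and 4 highest (difference 0.19 ± 0.07 SE, limma adjusted p = 0.242). Etfb averaged 77.3 ± 5.53 FPKM in A-PDK1KO hearts and 73.7 ± 5.56 FPKM in control hearts (SD, n = 5 each). Of its exon length 58.2% is shared on the same strand with other annotated genes, mainly Gm45233, so its level is uncertain. The Etfa to Etfb ratio ranged from 3.07 to 4.67 in A-PDK1KO hearts and from 3.21 to 3.61 in control hearts.

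In peroxisomes Abcd3 imports acyl-CoA, Ehhadh and Hsd17b4 encode the bifunctional enzymes that hydrate and dehydrogenate it, Acaa1a is the thiolase, and Crot forms carnitine esters of the shortened chains for export. None of the 5 was called by limma on FPKM, 2 were higher at an unadjusted p under 0.05, and limma voom on recovered reads called 1, Ehhadh. Ehhadh (chromosome 16, 21761287 to 21787807), a known target of PPAR-alpha in liver, had the highest log2 difference of all members. It was at 7.28, 12.1, 6.89, 6.13 and 6.64 FPKM in A-PDK1KO replicates 1 to 5, against 3.37, 5.36, 4.21, 3.71 and 5.48 FPKM in control replicates 1 to 5, from 93 to 352 reads per heart. A-PDK1KO replicate 2 stood well above the rest, and the other 4 A-PDK1KO hearts still exceeded every control heart. Its difference was 0.68 ± 0.17 SE and its group means were 1.76 times apart, just outside the threshold (limma adjusted p = 0.0576). Without A-PDK1KO replicate 2 the difference was 0.53, the lowest of the 10 fits that left out 1 heart, in 0 of which Ehhadh was called.

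The other bifunctional enzyme gene, Hsd17b4, was at 26.8, 28.7, 26.0, 28.4 and 27.5 FPKM in A-PDK1KO replicates 1 to 5, against 21.2, 26.5, 25.0, 24.4 and 26.3 FPKM in control replicates 1 to 5. Control replicate 1 was lowest and the groups overlapped slightly (difference 0.15 ± 0.07 SE, limma adjusted p = 0.316). Abcd3 averaged 12.3 ± 1.98 FPKM in A-PDK1KO hearts and 11.7 ± 0.921 FPKM in control hearts, Acaa1a 12.2 ± 0.827 FPKM in A-PDK1KO hearts and 12.1 ± 1.12 FPKM in control hearts, and Crot 6.42 ± 0.477 FPKM in A-PDK1KO hearts and 6.19 ± 0.577 FPKM in control hearts (SD, n = 5 each). Their log2 differences were 0.06, 0.01 and 0.05, with 95% intervals of -0.15 to 0.28, -0.15 to 0.17 and -0.12 to 0.22, so for none of the 3 was a direction established.

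High and low values of many members fell in the same hearts. Among the A-PDK1KO hearts, replicates 2 and 4 held the highest value of 15 members each, and replicate 1 the lowest of 19. Among the controls, replicate 4 held the highest value of 20 members, and replicates 5 and 1 the lowest of 16 and 14. The share of reads from mitochondrially encoded transcripts was 34.3% and 36.1% in A-PDK1KO replicates 2 and 4, against 41.5% in A-PDK1KO replicate 1, and 32.7% in control replicate 4, against 39.2% and 40.4% in control replicates 5 and 1. FPKM are relative to all counted reads, these included. With mitochondrially encoded and haemoglobin genes left out of the scaling the median log2 difference of the members was 0.19, against 0.17 with them. Without A-PDK1KO replicate 2 and control replicate 4 together, a choice made after seeing the data, the median was also 0.17, and 1 member, Cpt2, was called. The number of genes detected at 1 FPKM was 10723 in A-PDK1KO replicate 2 and 9671 to 10214 in the other 9 hearts. The part of these shares and numbers in the differences was not tested.

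Of 24 other tested genes of fatty acid oxidation 1 rose and 0 fell, the median log2 difference was 0.05, and 15 were above 0. The called gene was Dbi, an acyl-CoA binding protein, which averaged 83.7 ± 6.37 FPKM in A-PDK1KO hearts and 66.0 ± 5.58 FPKM in control hearts (log2 difference 0.34 ± 0.07 SE, limma adjusted p = 0.0367). At an unadjusted p under 0.05, 4 of the 24 were higher (Dbi, Etfbkmt, Acat1 and Acsl6) and 1 was lower (Hsd17b10), and voom called 1 higher and 0 lower. Etfbkmt, which methylates the beta subunit of electron transfer flavoprotein, averaged 7.83 ± 1.34 FPKM in A-PDK1KO hearts and 5.76 ± 0.645 FPKM in control hearts (log2 difference 0.38, limma adjusted p = 0.102). Acsl6, an acyl-CoA synthetase, averaged 1.43 ± 0.105 FPKM in A-PDK1KO hearts and 1.05 ± 0.173 FPKM in control hearts (log2 difference 0.25, limma adjusted p = 0.177). Acat1, a mitochondrial thiolase, averaged 129 ± 16.9 FPKM in A-PDK1KO hearts and 104 ± 9.08 FPKM in control hearts. Hsd17b10, a hydroxyacyl-CoA dehydrogenase, averaged 98.2 ± 6.03 FPKM in A-PDK1KO hearts and 112 ± 3.56 FPKM in control hearts. Acacb, which makes the malonyl-CoA that Mlycd removes, averaged 33.8 ± 2.82 FPKM in A-PDK1KO hearts and 33.2 ± 3.81 FPKM in control hearts. Of 15 peroxisome biogenesis genes 0 were called by limma on FPKM or by voom, and 1 had an unadjusted p under 0.05 (median 0.04).

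Among 14 other genes of a list of PPAR-alpha targets, Txnip, which encodes thioredoxin-interacting protein, was the 1 called, higher (125 ± 55.0 FPKM in A-PDK1KO hearts and 48.7 ± 7.11 FPKM in control hearts, limma adjusted p = 0.0127), and 6 were higher at an unadjusted p under 0.05 (median 0.24). Log2 differences ran from -0.30 to 1.26, with 10 of the 14 above 0 and 4 below. Plin5, a lipid droplet protein, averaged 63.5 ± 8.10 FPKM in A-PDK1KO hearts and 49.9 ± 2.60 FPKM in control hearts (log2 difference 0.34, limma adjusted p = 0.0617). Angptl4, an inhibitor of lipoprotein lipase, ranged from 1.96 to 17.5 FPKM in A-PDK1KO hearts and from 0.672 to 2.09 FPKM in control hearts. Its A-PDK1KO mean was 5.40 FPKM with a larger SD of 6.76. The log2 difference of 1.02 ± 0.43 SE was not called (limma adjusted p = 0.275). Of 20 regulators 0 were called by limma on FPKM, 3 were higher at an unadjusted p under 0.05, voom called 1 as higher, and the median was -0.02. The receptor gene Ppara averaged 5.74 ± 0.590 FPKM in A-PDK1KO hearts and 6.69 ± 0.854 FPKM in control hearts (log2 difference -0.19, limma adjusted p = 0.351). Its coactivator gene Ppargc1a averaged 4.56 ± 1.22 FPKM in A-PDK1KO hearts and 4.50 ± 0.801 FPKM in control hearts. Lpin1, a coactivator and phosphatidate phosphatase, had a log2 difference of 0.53 (limma adjusted p = 0.0528).

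Of 18 tricarboxylic acid cycle genes 0 were called by limma on FPKM or by voom, 0 had an unadjusted p under 0.05, and the median log2 difference was 0.03. Of 36 nuclear genes of respiratory complex I, 31 had a log2 difference below 0 (median -0.09), 12 of them at an unadjusted p under 0.05, and 1, Ndufs6, fell (331.2 ± 8.86 FPKM in A-PDK1KO hearts and 389.8 ± 19.3 FPKM in control hearts, limma adjusted p = 0.0384). The 4 endothelial markers had a median log2 difference of 0.04 and the 4 fibroblast markers of 0.12, with 0 of 4 and 1 of 4 at an unadjusted p under 0.05 and 0 called by limma on FPKM or by voom. Medians were below 0 for 4 macrophage (-0.08), 3 smooth muscle (-0.10) and 5 erythroid markers (-0.27). Of these, 0, 1 and 0 were lower at an unadjusted p under 0.05, and 0 were called by limma on FPKM or by voom. All 6 cardiomyocyte markers had log2 differences at or below 0 (median -0.15), 3 at an unadjusted p under 0.05, 0 called by limma on FPKM and 1 as lower by voom. The part of these markers in the members' differences was not tested. Of 3 brown adipocyte markers 1, Cidea, was analysed here, at 28.0 to 33.2 FPKM in A-PDK1KO hearts and 24.2 to 32.7 FPKM in control hearts, and of 6 white adipocyte markers (Adipoq, Plin1, Cidec, Lep, Retn and Adrb3) 0 were.

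**Figure D4:**
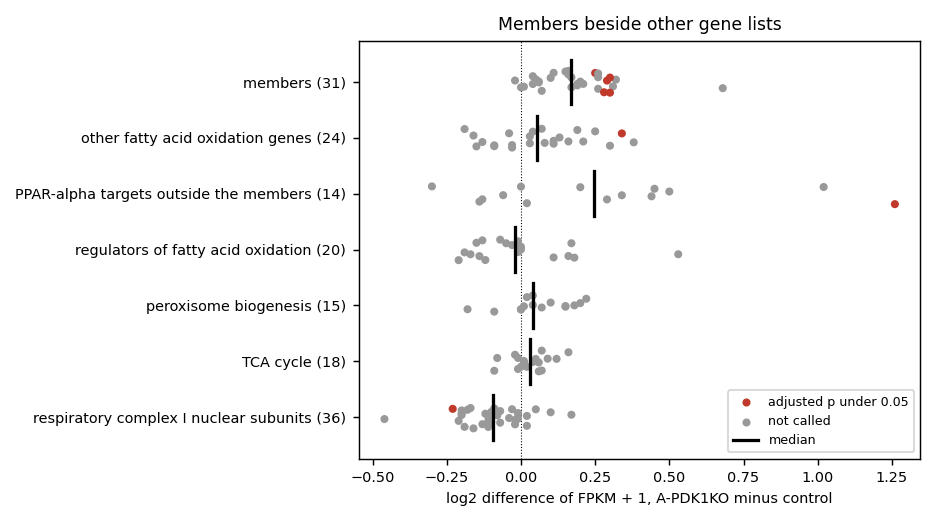
Log2 difference of FPKM + 1, A-PDK1KO minus control, for each tested gene of the member list and of 6 other lists (number of genes in parentheses); black bars are medians and red marks an adjusted p under 0.05. The member median is 0.17, that of the tricarboxylic acid cycle 0.03 and that of complex I -0.09.

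**Figure D5:**
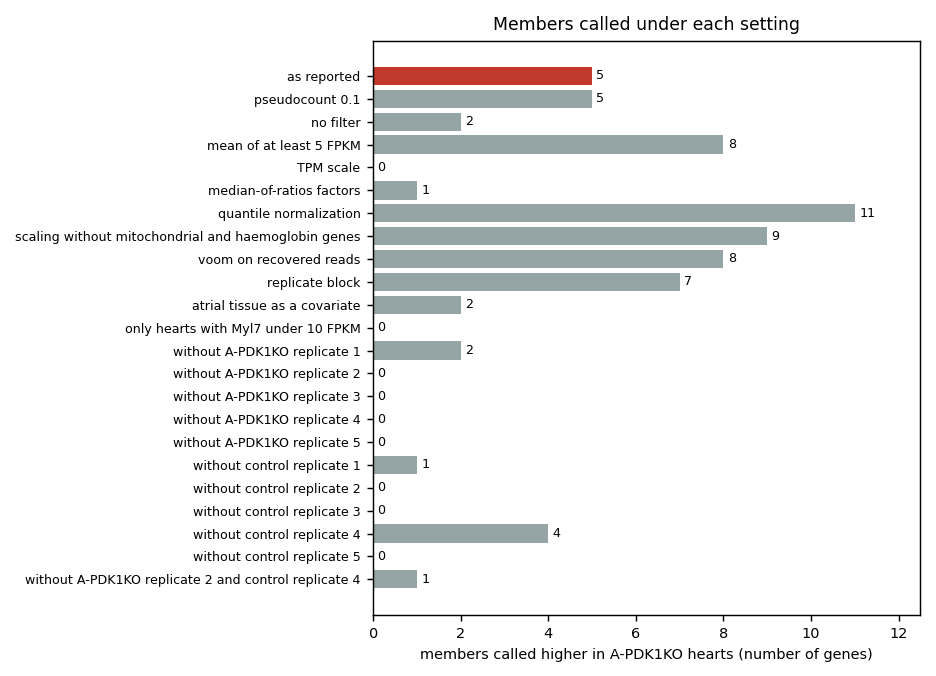
Number of members called higher in A-PDK1KO hearts at an adjusted p under 0.05 under each setting; red is the value as reported. The count ranges from 0 to 11, and 0 is reached on the TPM scale, in the 6 hearts with Myl7 under 10 FPKM and without any 1 of 7 single hearts.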

How the data were processed

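RNA of 10 hearts, 5 A-PDK1KO and 5 control by their titles, was sequenced as paired ends with read quality checked in FastQC 0.11.7 according to the labels. The submitters' processing notes list featureCounts 1.6.3, HISAT2 2.1.0, Trimmomatic 0.38 and the build mm10. The deposited values are FPKM made by the authors, 1 column per heart. Annotation, strand setting and kit are not stated in the sources used here. Every gene in the table reaches 1.00 FPKM in at least 1 heart.

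FPKM were tested as log2(FPKM + 1) with limma 3.58.1 in R 4.3.3 (empirical Bayes with trend, two-sided, no covariate) for genes averaging 1 FPKM or more. Reads were recovered with GENCODE exon lengths (whole within 0.05 of a read for 98.48% of values) for a voom test. The fit was tested on simulated reads in which genes varied independently, and it recovered 78.4% of 1.5-fold and 94.8% of 2-fold changes. Smaller changes, such as those of the called members, were not simulated, nor were genes that vary together. The simulation therefore does not show how reliable such calls are. Alternatives were other pseudocounts, filters and scalings, an atrial covariate, a replicate block and leaving out hearts. Checks of files used Python 3.11.15. Members and lists were chosen with earlier results of these data known. Values in every heart are given for members called, at an unadjusted p under 0.05 or highest in their step, and for the Cpt genes; from other lists, called genes or, where there were none, those of smallest p are named. Etfbkmt, Acsl6, Acat1, Hsd17b10, Acacb, Plin5, Angptl4, Ppara and Ppargc1a were named outside that rule, after their values were seen.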

Additional observations from a re-analysis of the deposited data

Results flagged for a closer look

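In 5 of the 64 sets of 5 hearts (32 members in each genotype) 1 heart stood apart from the other 4 by Dixon's test at the 95% level; chance flags about 1 set in 20. Ehhadh was at 12.1 FPKM in A-PDK1KO replicate 2, against 6.13 to 7.28 FPKM in the 4 remaining A-PDK1KO hearts. Cpt1b was at 1.40 FPKM in A-PDK1KO replicate 2, against 0.286 to 0.537 FPKM in the 4 remaining A-PDK1KO hearts. Ech1 was at 498 FPKM in control replicate 5, against 566 to 575 FPKM in the other controls. Eci1 was at 166 FPKM in control replicate 5, against 185 to 191 FPKM in the other controls. Mlycd was at 53.8 FPKM in control replicate 1, against 61.3 to 62.9 FPKM in the other controls.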

How the results depend on the processing

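The median log2 difference of the members (0.17) was between 0.14 and 0.25 under the 22 settings tried, and 0 members were called lower under any of them. Counts of calls moved more. Of all genes 208 were called, against 62 on the TPM scale, 314 with mitochondrially encoded and haemoglobin genes left out of the scaling, 4 among the 6 hearts with Myl7 under 10 FPKM, and 57 to 150 with 1 heart left out. Members called higher numbered 5, against 2 with no filter, 8 with a minimum of 5 FPKM, 0 on the TPM scale, 1 with median-of-ratios factors, 11 after quantile normalization, 9 without mitochondrially encoded and haemoglobin genes, 8 with voom on recovered reads, 2 with atrial tissue as a covariate, 0 among hearts with Myl7 under 10 FPKM (3 against 3), 1 without A-PDK1KO replicate 2 and control replicate 4, and 0 to 4 with 1 heart left out; the cause was not tested. The share of all tested genes called higher was 0.908% with no filter, 2.61% with a minimum of 5 FPKM and 1.4% with voom. It was 0.29% to 0.944% with 1 heart left out. Signs turned only for differences near 0 that were not called. Echs1 was at -0.028 with median-of-ratios factors, -0.0073 with the atrial covariate, -0.0229 among hearts with Myl7 under 10 FPKM and -0.0513 to 0.0607 with 1 heart left out. Acaa1a was at -0.0156 with median-of-ratios factors, -0.0087 among hearts with Myl7 under 10 FPKM and -0.0203 to 0.0595 with 1 heart left out. Among hearts with Myl7 under 10 FPKM Acad11 was at 0.0809 and Etfb at -0.0397. With 1 heart left out Acad11 lay between -0.0918 and 0.038, Acad12 between -0.0874 and 0.13, Abcd3 between -0.009 and 0.12, and Mlycd between -0.0016 and 0.0785. No pairing by replicate number was seen (correlations of same-numbered deviations -0.116 to 0.085), which cannot show that the hearts were unpaired. A replicate block gave 153 genes, 7 of them members. A quasi-likelihood count test on recovered reads was planned and not run.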
